A study of Mus musculus with 6 samples.

Results

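The 50 loci described here held the largest mean normalized count over the 6 libraries of a mouse embryonic stem (ES) cell differentiation series. They were chosen by their measured level, as the 50 highest of the 18420 loci in the count table by the mean over all 6 libraries, whatever their class, with chromosomes X and Y left out. Because the mean level chose them, their levels are given below as a description, without a test. The rule did not use the contrast between the stages, but its mean includes both, so a locus that is high at 1 stage only could enter through that stage. Of the 50, 7 were among the 50 highest by the day 6 mean and not by the day 0 mean, and 6 the other way round. For these 13 the stage difference is tied to the choice, and the fitted values printed for them describe them and support nothing further. The 3 libraries of day 0 came from undifferentiated ES cells, and the 3 of day 6 came from embryoid bodies, the aggregates formed when ES cells are placed in hanging drops, harvested 6 days after cardiac differentiation was induced. Both stages came from 1 line, which carries an Nkx2.5-EmGFP reporter on a bacterial artificial chromosome, and which was kept on feeder fibroblasts from mouse embryos or on gelatin with the cytokine LIF. The strain label reads C57BL/6J at both stages, whereas the growth protocol gives 129/OlaHsd and the subline E14Tg2A.4, and no label resolves the conflict. Which day 0 libraries came from feeder cultures and which from gelatin is not labelled. Embryoid bodies are mixtures of cell types, and in such bulk samples fewer cells of a type and less RNA per cell cannot be told apart.

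In poly(A)-selected RNA a small number of very abundant transcripts takes a visible part of all reads, so that a locus which grows takes reads from every other locus when shares are compared. The number of reads at a locus depends on transcript length as well as on transcript number, and a long transcript can rank high with few molecules. Mitochondrial genes are transcribed from a short circular genome present in many copies per cell, and their polyadenylated RNAs are usually among the most abundant in a library. A share is given here as the percentage of a library's summed normalized counts.

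Each library held 106306699 to 114092201 counted reads. The table gives read counts divided by 1 size factor per library. The protocols name no molecular identifiers, so that reads cannot be taken as independent molecules. Day 6 was compared with day 0 over 17145 loci with limma on log2(normalized count + 1), with Benjamini-Hochberg adjustment over all of them and a threshold of 0.05. The series' design text calls the 3 libraries of a stage biological replicates, without naming separate cultures, and the p-values measure the spread between them. Neither deposited file pairs its identifiers with gene symbols, and 0 of the 55308 annotation identifiers of the assembly were found in the gene name tables used. Loci are therefore given by their identifier in the authors' assembly, their position on mm9 and their annotation identifiers, which have the form of UCSC known genes. No role is assigned to any of them, and the labelled cell types were not checked against markers.

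Of the 50 loci, 42 were annotated as coding and 8 as noncoding. Noncoding means here only that the assembly lists no protein identifier for an annotated locus, and translation was not examined. Of the 50, 1 coding and 4 noncoding loci lay on the mitochondrial chromosome. The 50 lay on 14 chromosomes, with 10 on chromosome 11 and 7 on chromosome 7. They carried 156 annotation identifiers, between 1 and 10 per locus, and 15 loci carried 1. The exonic length, taken as the union of all exons of a locus, had a median of 9902 nt over the 50 and ran from 1085 to 64098 nt. Over all loci of the table the median was 6248 nt, and over the coding loci it was 7101 nt. Over the loci ranked 51 to 100 and 51 to 500 by mean it was 8123 and 10780 nt. Of the 50, 8 had no transcript with more than 1 exon, and the median of the largest exon number per locus was 12. In 10 of the 50 (20%) the annotated transcripts fell into groups that share no exonic base. Such groups were found in 8.46% of all loci in the table. Among the loci ranked 51 to 100 and 51 to 500 it was 28 and 23.8%. For these 10, reads of neighbouring annotated transcripts were summed under 1 identifier and cannot be told apart.

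The locus with the largest mean was the mitochondrial XLOC_038397 (chrM:5327-6938, plus strand, identifier uc009vey.1). It counts as noncoding here only because the assembly lists no protein identifier for it. Its share was 1.48, 1.04 and 1.17% in day 0 replicates 1, 2 and 3, and 1.07, 1.16 and 1.05% in the day 6 replicates. It ranked first in every day 0 library and second in every day 6 library, and its ranges overlapped between the stages.

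The coding locus XLOC_015885 (chr17:45704727-45718435, minus strand, uc008cqz.1) came second in order of the mean. It took 0.706, 0.916 and 0.882% at day 0 and 0.825, 0.794 and 0.744% at day 6. Next was XLOC_037721 (chr9:78278254-78337021, minus strand), which took 0.669, 0.674 and 0.589% at day 0 and 0.749, 0.712 and 0.663% at day 6. It holds 2 groups of annotated transcripts. Neither passed the test, with a log2 change of 0.02 ± 0.18 (SE) and an adjusted p of 0.929 for XLOC_015885 and of 0.24 ± 0.14 and 0.217 for XLOC_037721 (limma).

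Next in the order stood a pair of loci that were far apart at the stages. XLOC_033696 (chr7:149836673-149846940, minus strand, uc009kod.2, uc012fxo.1 and uc012fxp.1) was coding, with 4236 nt of exon in at most 4 exons per transcript. Its share was 0.0121, 0.0104 and 0.0131% at day 0 and 1.20, 1.22 and 1.14% at day 6. XLOC_029039 (chr6:4696505-4710567, plus strand, uc009avv.1 and uc012ehu.1) was coding and took 0.124, 0.264 and 0.192% at day 0 and 0.982, 0.966 and 0.679% at day 6. In both, every day 6 library lay above every day 0 library, and XLOC_033696 held the first rank in each day 6 library after ranks of 2103, 2348 and 1915 at day 0.

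The coding loci at ranks 6, 7 and 9 moved less. XLOC_002705 (chr10:80639376-80645254, plus strand) took 0.575, 0.516 and 0.414% at day 0 and 0.644, 0.581 and 0.555% at day 6. XLOC_001100 (chr1:88241294-88256030, minus strand) took 0.335, 0.580 and 0.534% at day 0 and 0.322, 0.318 and 0.346% at day 6. XLOC_001034 (chr1:71631890-71699745, minus strand), which has 10 annotation identifiers and up to 47 exons, took 0.461, 0.246 and 0.383% at day 0 and 0.398, 0.367 and 0.336% at day 6. Shares of each of these 3 loci overlapped between the stages, and none passed the test, at adjusted p-values of 0.11, 0.205 and 0.53 (limma). In normalized counts, the scale of the test, XLOC_002705 was separate, with 567119, 607441 and 439168 at day 0 and 741973, 679590 and 621533 at day 6. XLOC_001100 and XLOC_001034 overlapped on that scale too.

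The other loci of the first 10 were mitochondrial and noncoding only in that sense, with no protein identifier listed in the assembly. XLOC_038401 (chrM:12406-15288) took 0.308, 0.413 and 0.463% at day 0 and 0.343, 0.378 and 0.407% at day 6. XLOC_038395 (chrM:1149-3703) took 0.259, 0.337 and 0.4002% at day 0 and 0.258, 0.298 and 0.329% at day 6. The lowest day 0 value of both stood in replicate 1, where XLOC_038397 had its highest.

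**Figure D1:**
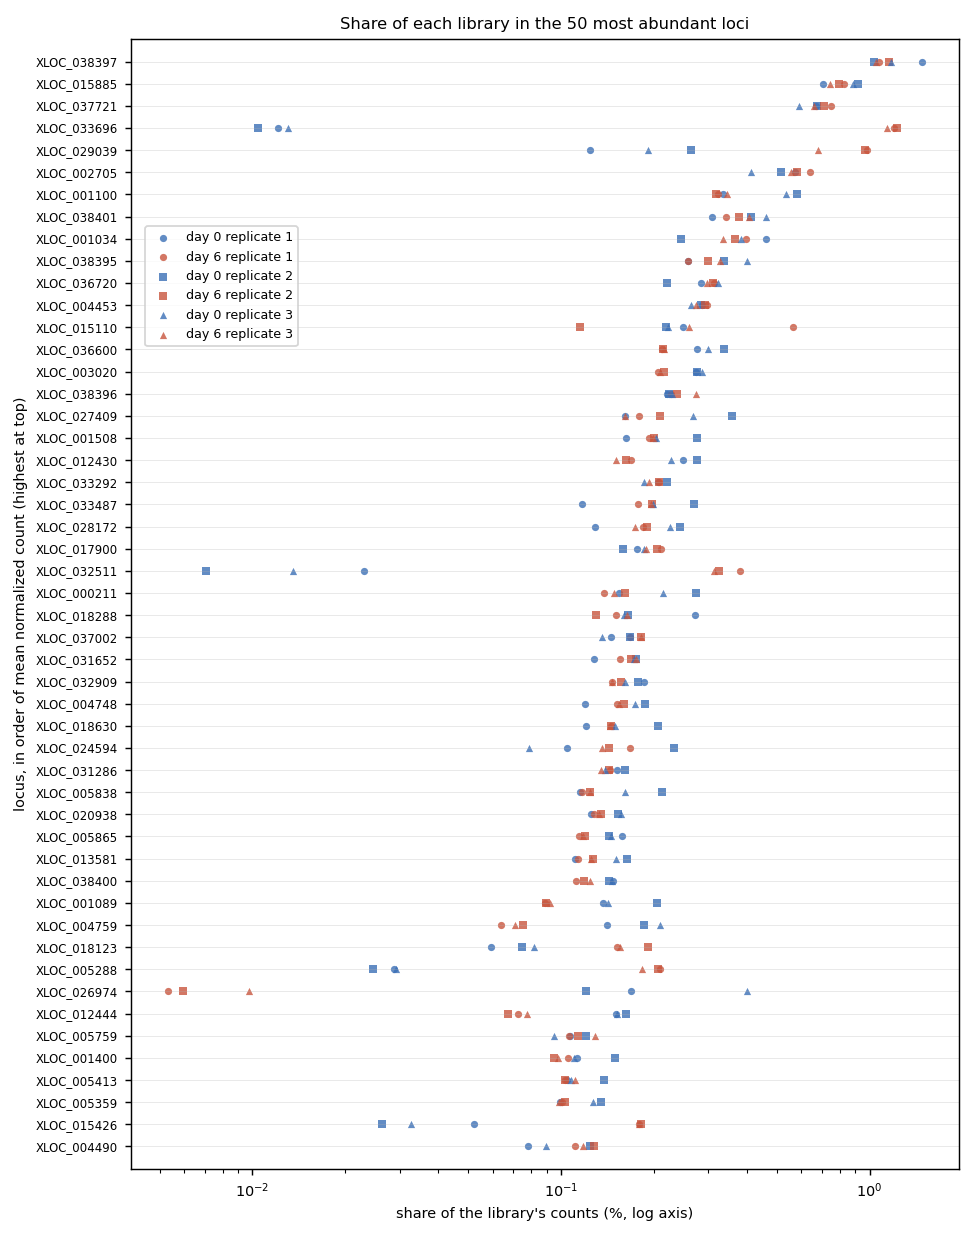
Share of each library's normalized counts (percent, log axis) taken by each of the 50 loci, in order of the mean, with 3 day 0 libraries in blue and 3 day 6 libraries in red and the replicate number as the marker shape. XLOC_033696, XLOC_032511 and XLOC_026974 show the widest gaps between stages, and XLOC_015110 the widest scatter within day 6.

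The first question was which loci make the summed share of the first 10 larger at day 6. That share was 4.92, 4.99 and 5.04% at day 0 and 6.79, 6.79 and 6.25% at day 6, a mean of 4.99 ± 0.0593% against 6.61 ± 0.316% (SD over 3 libraries). Every day 6 library lay above every day 0 library. The difference was 1.62 percentage points. Summed shares are given without a test, since the levels chose the members, and XLOC_033696 and XLOC_029039 entered the first 10 through day 6.

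XLOC_033696 added 1.18 points and XLOC_029039 added 0.683. Summed, they took 0.205 ± 0.0689% of the day 0 counts and 2.06 ± 0.213% of the day 6 counts (SD over 3 libraries), which is 1.86 points or 114.5% of the difference. Without XLOC_033696 the other 9 loci still took more at day 6, by 0.448 points. Without both, the other 8 took 4.79, 4.72 and 4.84% at day 0 and 4.61, 4.60 and 4.43% at day 6, a difference of -0.235 points. These 8 are what remains after the largest rises are taken out, and those rises also enlarge the totals that shares are divided by. Summed as normalized counts, the same 8 held 4720152, 5558548 and 5127976 at day 0 and 5313121, 5383775 and 4962178 at day 6, which overlapped, with a slightly larger mean at day 6. Within the first 10, 5 loci had a larger mean share at day 6, and these parts summed to 2.02 points against -0.393 for the other 5.

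**Figure D2:**
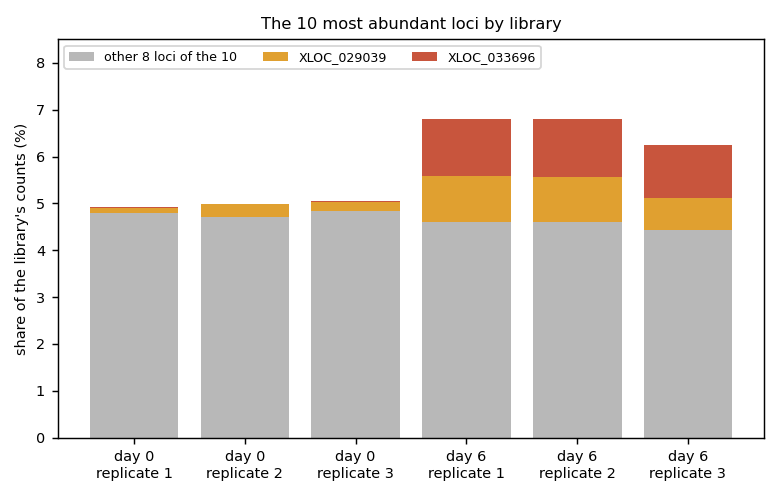
Summed share (percent) of the 10 most abundant loci in each of the 6 libraries, with XLOC_033696 and XLOC_029039 stacked above the other 8. The grey part is 4.43 to 4.84% in every library, and the coloured part grows from at most 0.274% at day 0 to at least 1.82% at day 6.

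Summed over all 50, the share was 11.01, 12.39 and 11.9% at day 0 and 13.6, 13.2 and 12.7% at day 6. These shares did not overlap between the stages, and the mean difference was 1.40 points. Summed as normalized counts the 50 did overlap, with 10855802, 14598676 and 12611724 at day 0 and 15636968, 15489832 and 14209712 at day 6. The 50 highest of each library by itself overlapped as well, at 11.69, 13.13 and 12.59% against 13.9, 13.57 and 12.95%. With the 50 chosen again without day 6 replicate 1, 2 or 3 the difference in share was 0.684, 0.663 or 1.06 points. Without day 0 replicate 1, 2 or 3 it was 1.46, 1.88 or 1.79 points. Each new choice weights the mean towards the stage left complete, so these values do not isolate the part of 1 library. The loci ranked 11 to 50 took 6.09, 7.40 and 6.86% at day 0 and 6.77, 6.45 and 6.43% at day 6, values that overlapped (difference -0.230 points). When each library was ranked by itself, its own first 10 took 5.38, 5.45 and 5.56% at day 0 and 7.16, 6.82 and 6.25% at day 6. Across the libraries 17 loci entered such a first 10, and 5 of them did so in all 6. XLOC_033696 and XLOC_029039 entered it in the 3 day 6 libraries and in none of day 0, and XLOC_032511 in 2 day 6 libraries.

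By locus, 19 of the 50 had a larger mean share at day 6 and 31 a smaller one, whereas by mean normalized count it was 24 and 26. After XLOC_033696 and XLOC_029039 the largest gains were those of XLOC_032511 with 0.325 points, XLOC_005288 with 0.172, XLOC_015426 with 0.143 and XLOC_018123 with 0.0941. The largest losses were those of XLOC_026974 with -0.223 points, XLOC_001100 with -0.155, XLOC_038397 with -0.136 and XLOC_004759 with -0.109. All gains together came to 3.00 points and all losses to -1.61.

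**Figure D3:**
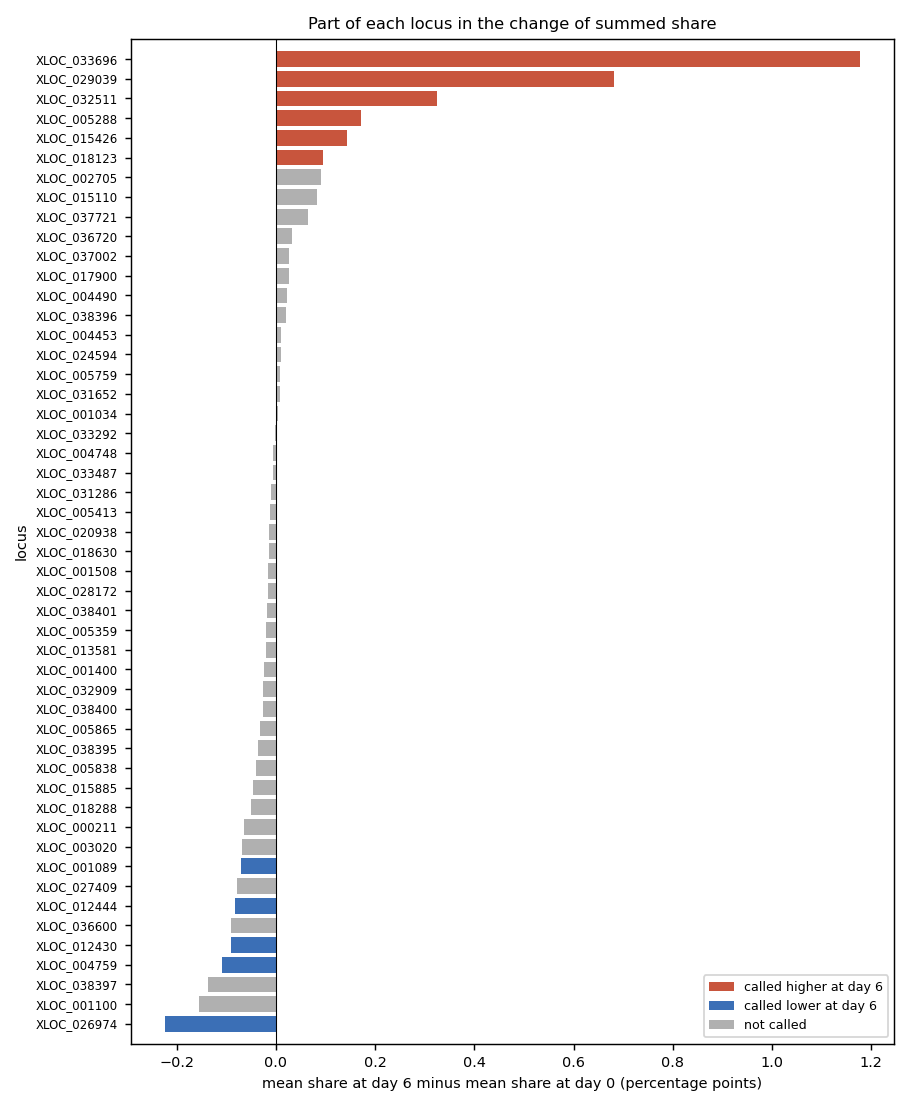
Mean share at day 6 minus mean share at day 0 (percentage points) for each of the 50 loci, coloured by the limma call. The bars run from 1.18 for XLOC_033696 to -0.223 for XLOC_026974, and the 6 largest gains are the 6 loci called higher.

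Over the 17145 tested loci 44.0% passed the limma test, 22.2% higher and 21.8% lower at day 6. Of the 50 most abundant, 11 passed, which is 22.0%, with 6 higher and 5 lower. Of these 11, 9 were among the 13 loci that ranked in the first 50 at 1 stage only, and 2 (XLOC_029039 and XLOC_012430) were among the 36 that did so at both. Among the loci ranked 51 to 100 by mean 17 of 50 passed, and among those ranked 51 to 500 it was 147 of 450. The median log2 change of the 50 was 0.02, the same as over all tested loci, and the median size of the change was 0.25 against 0.64. At ranks 51 to 100 and 51 to 500 that size was 0.29 and 0.31. Of the called members 54.55% were higher, against 40% when each library was divided by its own total (6 of 15) and 36.84% after quantile normalization (7 of 19). The 11 loci remained called under both scalings, and the split moved because more members were called lower. Complete separation of the stages, where all 3 normalized counts of one stage lie above those of the other, was found for 57.3% of the tested loci and for 17 of the 50, 8 of them higher at day 6 (background 29.5%) and 9 lower (background 27.7%).

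Of the 6 loci called higher, all were coding. XLOC_033696 had 11945, 12239 and 13839 normalized counts at day 0 and 1388451, 1430026 and 1276695 at day 6. Its mean was 108-fold higher at day 6, with a log2 change of 6.75 ± 0.13 (SE) and an adjusted p of 1.25e-07 (limma). The replicates of each stage lay close together beside that distance.

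XLOC_032511 (chr7:6656301-6684564, minus strand, uc009fbw.1 and uc009fbx.1) had 22665, 8344 and 14349 normalized counts at day 0 and 438730, 380579 and 351156 at day 6. It rose 25.8-fold, with a log2 change of 4.80 ± 0.32 and an adjusted p of 2.55e-05 (limma). Its day 0 libraries were spread more than its day 6 libraries, with SDs of 0.72 and 0.16 on the log2 scale, and the lowest was replicate 2.

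XLOC_005288 (chr11:11830502-11937423, minus strand) had 28364, 29007 and 30838 normalized counts at day 0 and 241573, 241701 and 205135 at day 6. It rose 7.80-fold (log2 change 2.96 ± 0.13, adjusted p = 4.41e-06, limma). This locus had one of the smallest spreads of the 50 at day 0, an SD of 0.06 on the log2 scale.

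XLOC_015426 (chr17:12875221-13027254, minus strand, uc008aky.1) had 51574, 30896 and 34470 normalized counts at day 0 and 206331, 212473 and 199979 at day 6. It rose 5.29-fold (log2 change 2.44 ± 0.19, adjusted p = 5.36e-05, limma), and its ranks moved from 244, 842 and 581 to 25, 26 and 25. The day 6 libraries lay within a narrow band and day 0 replicate 1 above the other day 0 libraries.

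For XLOC_029039 the counts were 122156, 310451 and 203142 at day 0 and 1131706, 1130203 and 760699 at day 6. It rose 4.75-fold (log2 change 2.33 ± 0.32, adjusted p = 0.000758, limma). Day 6 replicate 3 was the lowest of its stage and still above all of day 0.

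The smallest of the called rises was that of XLOC_018123 (chr19:44277778-44381352, plus strand), which holds 2 groups of annotated transcripts. It had 58495, 87849 and 86596 normalized counts at day 0 and 174732, 223031 and 174577 at day 6, a 2.46-fold rise (log2 change 1.31 ± 0.19, adjusted p = 0.00102, limma). As a group the 6 loci took 0.299, 0.406 and 0.362% of the counts at day 0 and 3.11, 3.09 and 2.65% at day 6.

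Among the 5 loci called lower, XLOC_026974 (chr5:104862961-104875015, plus strand, uc008yki.2, uc008ykj.2 and uc008ykk.2) stood apart in size. It had 166458, 141801 and 425544 normalized counts at day 0 and 6147, 6977 and 10896 at day 6. The fall was 30.6-fold (log2 change -4.80 ± 0.40, adjusted p = 7.11e-05, limma), and the rank went from 21, 59 and 7 to 4331, 4008 and 2759. Day 0 replicate 3 held more than the other day 0 libraries together. That locus also had one of the 3 largest day 0 spreads of the 50, with an SD of 0.86 on the log2 scale.

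XLOC_004759 (chr11:77106320-77110703, plus strand, uc007kgm.1) was the only noncoding locus among the 11. It had 138694, 218463 and 222402 normalized counts at day 0 and 73934, 88085 and 79718 at day 6, a 2.40-fold fall (log2 change -1.23 ± 0.20, adjusted p = 0.00156, limma). All of its day 6 libraries lay below all of day 0.

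XLOC_012444 (chr15:37897083-38036908, minus strand) had 148847, 191191 and 160962 normalized counts at day 0 and 83394, 78598 and 87210 at day 6, a 2.01-fold fall (log2 change -1.0 ± 0.14, adjusted p = 0.000706, limma). XLOC_001089 (chr1:84717402-84846810, minus strand) had 134476, 241245 and 150254 at day 0 and 101982, 104417 and 102994 at day 6 (log2 change -0.72 ± 0.21, adjusted p = 0.0253, limma). For XLOC_012430 (chr15:36518169-36539448, minus strand) the counts were 245783, 325826 and 240083 at day 0 and 194270, 189959 and 169015 at day 6 (log2 change -0.54 ± 0.16, adjusted p = 0.0227, limma). In each of these 3 loci the stages were separate. The calls of XLOC_001089 and XLOC_012430 were lost when any 1 day 6 library was left out. Their adjusted p-values were then 0.0742 to 0.0789 and 0.0657 to 0.1 (limma). Their log2 changes in these fits were -0.71 to -0.73 and -0.48 to -0.58. Calls over all tested loci also fell, to 5307, 5143 and 5772 without day 6 replicate 1, 2 or 3, from 7543. Whether the lost calls reflect more than this was not tested.

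The summed share of these 5 loci was 0.846, 0.949 and 1.13% in the day 0 libraries and lay between 0.399 and 0.401% in those of day 6. The day 6 libraries were nearly equal, and all lay below all of day 0.

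**Figure D4:**
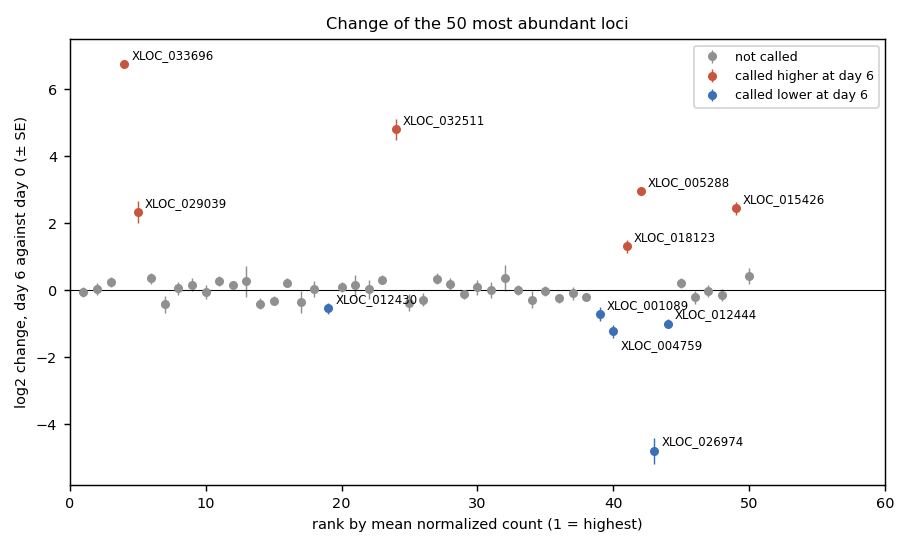
Log2 change from day 0 to day 6 with its standard error (limma) for each of the 50 loci against rank by mean normalized count, red for called higher, blue for called lower and grey for not called. The 11 called loci lie between -4.80 and 6.75, and the grey points between -0.42 and 0.42.

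The other 39 loci did not pass the test, which does not show that they were equal at the stages. Their summed share was 9.87, 11.04 and 10.4% at day 0 and 10.1, 9.75 and 9.63% at day 6 (difference -0.623 points), given as a description because the test itself set these loci apart. All 50 together had 39 with a log2 change under 0.5 in size and 9 with one of at least 1. Closest to the threshold was XLOC_036600 (chr9:59498612-59527283, plus strand), with 272243, 397836 and 316507 normalized counts at day 0 and 244910, 249953 and 242017 at day 6. Its stages did not overlap, and its log2 change was -0.40 ± 0.16 (adjusted p = 0.0708, limma).

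Which of the 39 passed depended on the day 0 library left out. Without day 0 replicate 1, 7 more loci passed and all were lower at day 6, among them XLOC_001100 at a log2 change of -0.72 and XLOC_036600 at -0.53. Without day 0 replicate 2, another 7 passed and all were higher, among them XLOC_002705 at 0.44 and XLOC_024594 at 0.88. In each of these fits 36% of the 50 passed. Over all tested loci it was 49.3 and 51.9%, against 44.0% with all 6 libraries. Day 0 replicate 1 had the lowest day 0 share of 26 of the 50 loci, and day 0 replicate 2 had the highest of 27.

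Spread within a stage was larger at day 0. The SD on the log2 scale had a median of 0.34 over the 50 loci at day 0 and of 0.09 at day 6. Over all tested loci these medians were 0.40 and 0.14, and over the loci ranked 51 to 500 they were 0.27 and 0.07. The SD was larger at day 0 in 47 of the 50. The largest day 0 spread was that of XLOC_024594 (chr4:118777675-118815627, plus strand), with 0.104, 0.233 and 0.0787% of the counts at day 0 and 0.167, 0.143 and 0.136% at day 6. XLOC_033487 (chr7:118210338-118266214, minus strand) followed XLOC_026974 with 0.117, 0.270 and 0.199% at day 0 and 0.177, 0.197 and 0.196% at day 6. In both, day 0 replicate 2 was the highest of the 6 libraries.

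At the other end, XLOC_005865 (chr11:98854261-98888656, minus strand) took 0.158, 0.143 and 0.146% at day 0 and 0.114, 0.119 and 0.118% at day 6, with a day 0 SD of 0.07. Its stages were separate in normalized counts although it did not pass the test (log2 change -0.25 ± 0.12, adjusted p = 0.121, limma).

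The opposite pattern of spread appeared in XLOC_015110 (chr17:39979941-39985777, plus strand, uc012ath.1), a nuclear noncoding locus of a single exon. It took 0.248, 0.218 and 0.223% at day 0 and 0.563, 0.115 and 0.259% at day 6. The day 0 SD of 0.06 on the log2 scale was among the 3 smallest of the 50, and the day 6 SD of 1.14 exceeded every other in the 50. Day 6 replicates 1 and 2 stood above and below all day 0 libraries, and the log2 change was 0.26 ± 0.47 (adjusted p = 0.689, limma).

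Besides XLOC_015110 and XLOC_004759, 2 nuclear noncoding loci were among the 50. XLOC_000211 (chr1:60760756-60762560, plus strand, uc007beu.1), of a single exon, took 0.154, 0.274 and 0.214% at day 0 and 0.138, 0.161 and 0.149% at day 6. XLOC_018288 (chr19:5793412-5803267, minus strand, uc008gfj.2), with up to 4 exons, took 0.272, 0.165 and 0.160% at day 0 and 0.150, 0.130 and 0.163% at day 6. Their ranges overlapped between the stages. The 4 nuclear noncoding loci summed to 0.814, 0.843 and 0.806% at day 0 and 0.915, 0.481 and 0.642% at day 6, with overlapping ranges. XLOC_015110 made up 0.563, 0.115 and 0.259% of the day 6 counts in these sums. Its mean share was 0.0827 points larger at day 6, whereas those of XLOC_004759, XLOC_000211 and XLOC_018288 changed by -0.109, -0.0648 and -0.0511 points.

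The 5 mitochondrial loci are all on the plus strand and all of a single exon. XLOC_038396 (chrM:3849-4933, uc009vex.1, noncoding) took 0.221, 0.224 and 0.230% at day 0 and 0.227, 0.237 and 0.273% at day 6. XLOC_038400 (chrM:9876-11542, uc009vfb.1), the only one annotated as coding, took 0.147, 0.143 and 0.146% at day 0 and 0.112, 0.119 and 0.125% at day 6. The latter was lower in every day 6 library and did not pass the test (log2 change -0.20 ± 0.12, adjusted p = 0.228, limma). Summed, the 5 took 2.41, 2.15 and 2.41% at day 0 and 2.01, 2.19 and 2.18% at day 6, with overlapping ranges (difference -0.198 points).

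Corrected for length, the order changed. Counts per exonic kilobase divide the mean normalized count by the union of exons. The 5 highest of the 50 were XLOC_038397 with 794004, XLOC_038396 with 241385, XLOC_002705 with 196034, XLOC_033696 with 162622 and XLOC_004453 (chr11:48613338-48619743, plus strand) with 158073. XLOC_004453 took 0.286, 0.284 and 0.264% of the counts at day 0 and 0.297, 0.292 and 0.275% at day 6, from 1992 nt of exon. These 5 had lengths of 1085 to 4236 nt.

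The 3 lowest by counts per exonic kilobase were among the longest. XLOC_015426 had 1913 from 64098 nt and ranked 2055 of all loci on that scale. XLOC_012444 had 3161 from 39558 nt and ranked 1209. XLOC_013581 (chr16:20672506-20722338, plus strand) had 5850 from 25124 nt, ranked 548 and took 0.111, 0.163 and 0.151% of the counts at day 0 and 0.114, 0.127 and 0.125% at day 6. XLOC_015426, XLOC_012444 and XLOC_013581 also share 70.2, 34.3 and 38.9% of their exonic bases with other loci, and the effect of that on these values was not tested. Of the 50, 20 would also be among the 50 highest by counts per exonic kilobase, and 27 ranked 100 or better. The union of exons counts bases that no single transcript contains, and the median over the 50 was 19894 with the union but 47860 with the median transcript length of each locus.

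Per kilobase of exon XLOC_033696 rose from 2992 at day 0 to 322251 at day 6, and XLOC_029039 from 28188 to 134017. Taken on that scale as a share of the sum over all loci, the first 10 gained 1.43 points at day 6.

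**Figure D5:**
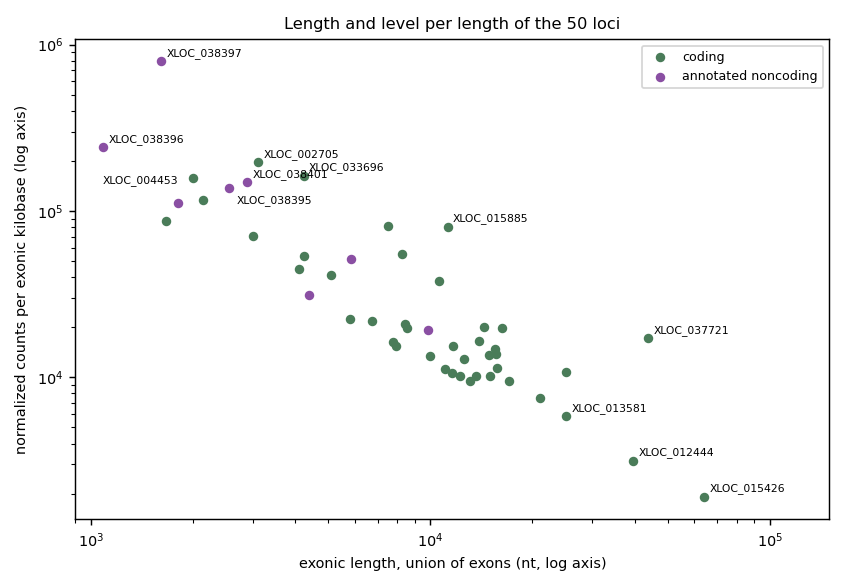
Mean normalized counts per exonic kilobase (log axis) against exonic length (nt, log axis) for the 50 loci, coding in green and annotated noncoding in purple. The mitochondrial locus XLOC_038397 lies highest at 794004, and XLOC_015426, at 64098 nt, lies lowest at 1913.

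Exons shared with other loci limit what a count can be assigned to. No exonic base was shared in 36 of the 50, over 10% in 9 and over 50% in 4. Among the 4 were the mitochondrial XLOC_038401 and XLOC_038395, which share 57.8% and 60% of their bases with other loci, foremost noncoding ones of the minus strand. XLOC_003020 (chr10:127516587-127574321, plus strand), with 0.273, 0.276 and 0.287% of the counts at day 0 and 0.206, 0.215 and 0.209% at day 6, shares 58.1% with loci that include XLOC_003719 on the minus strand. XLOC_015426 shares 70.2% with loci that include XLOC_014645 on the plus strand.

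XLOC_014645 averaged 38.3 normalized counts at day 0 and 230.7 at day 6 (log2 change 2.69, adjusted p = 0.00194, limma). Both loci of that pair were called higher. XLOC_015426 averaged 38980 at day 0 and 206261 at day 6, far above XLOC_014645. The sources do not state whether the counting used strand. Without strand, reads within the shared bases cannot be assigned to 1 of the 2 loci, and the effect on these values was not tested. The mitochondrial partner of XLOC_038401, XLOC_038404, averaged 92407 at day 0 and 93992 at day 6, and the partner of XLOC_038395, XLOC_038402, averaged 13.6 and 8.9.

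The nearest tested loci on each side that do not overlap the member give the surroundings of the 11 called loci. Overlapping loci such as XLOC_014645 were not counted as neighbours. Of the 12 neighbours of the 6 loci called higher, 7 were called higher, none lower and 5 not called, beside 22.2% called higher over all tested loci. For the 5 loci called lower, 1 of 10 neighbours was called higher, 2 lower and 7 not called, beside 21.8% called lower over all. Neighbours were looked at after the calls were seen, and no test was made of these counts.

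On chromosome 7, XLOC_032510, a coding locus 6423 nt from XLOC_032511 on the same strand, averaged 778 normalized counts at day 0 and 43687 at day 6 (log2 change 5.98 ± 0.39, adjusted p = 2.46e-05, limma). XLOC_032440, an unannotated intergenic locus 29994 nt from XLOC_033696 on the plus strand, went from 195 to 1756 (log2 change 3.28 ± 0.37, adjusted p = 0.00027, limma). On chromosome 6, XLOC_029038, a coding locus 103123 nt before XLOC_029039, went from 2180 to 9963 (log2 change 2.20 ± 0.18, adjusted p = 7.2e-05, limma). All 3 were called higher, at levels far below the abundant locus beside them. Of the neighbours on the other side, XLOC_031245 beside XLOC_032511 was also called higher (1.80 to 36.66). XLOC_033699 beside XLOC_033696 (33.83 to 17.84) and XLOC_029040 beside XLOC_029039 (8033 to 11478) were not called.

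XLOC_005288 had a close partner on the other strand. XLOC_004337, an unannotated intergenic locus 253 nt away, went from 253 to 985 normalized counts (log2 change 1.97 ± 0.24, adjusted p = 0.000374, limma). On the other side, XLOC_005287 went from 2616 to 1734 and was not called (adjusted p = 0.099, limma). XLOC_015426 was flanked by XLOC_015425 and XLOC_015427, both coding, with mean normalized counts of 3.28 and 43.63 at day 0 and 52.04 and 547.7 at day 6, both called higher at adjusted p-values of 0.00288 and 0.000496 (limma).

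Both lower neighbours flanked XLOC_012430: XLOC_012429 went from 235.1 to 64.49 normalized counts and XLOC_011879 from 730.5 to 117 (adjusted p = 0.0045 and 0.000554, limma). The neighbours of XLOC_026974 did not pass the test. XLOC_026975, 8574 nt away on the same strand, had 10259 normalized counts at day 0 and 12358 at day 6 (log2 change 0.29 ± 0.18, adjusted p = 0.208, limma).

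Membership depended on the stage for some loci. Of the 50, 42 were also among the 50 highest of the day 0 mean, 43 among those of the day 6 mean and 36 among both. XLOC_033696, XLOC_032511, XLOC_018123, XLOC_005288 and XLOC_015426 ranked 2062, 1719, 140, 728 and 470 by the day 0 mean and 1, 9, 28, 20 and 25 by the day 6 mean. XLOC_026974 ranked 16 by the day 0 mean and 3460 by the day 6 mean.

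The threshold was narrow. XLOC_015426 at rank 49 had a mean of 122620 normalized counts and XLOC_004490 (chr11:50188266-50200030, plus strand) at rank 50 had 121228, while XLOC_035354 at rank 51 had 119667 and XLOC_004744 at rank 52 had 117613. XLOC_004490 took 0.078, 0.124 and 0.0895% of the counts at day 0 and 0.111, 0.128 and 0.118% at day 6. The first locus outside, XLOC_035354, took 0.0953, 0.0959 and 0.131% at day 0 and 0.0962, 0.113 and 0.115% at day 6. For XLOC_004744 the shares were 0.117, 0.129 and 0.131% at day 0 and 0.0857, 0.0887 and 0.0871% at day 6. The stages overlapped in XLOC_004490 and XLOC_035354 and were separate in XLOC_004744. On chromosome X, 4 loci had means above that of rank 50 and were left out by the rule.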

How the data were processed

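Poly(A)-selected RNA of 6 samples, 3 at each stage, went onto a HiSeq2000 (labels' protocols). Named in the submitters' processing notes are HTSeq 0.5.4p3, Cufflinks 2.1.1, TopHat2 2.0.8 and DESeq, along with build mm9, and no role or order is given for any of them. The deposited table holds a signal for each locus, which is a read count the authors scaled by 1 size factor for each sample. That is inferred from the values: 100% of them came out as whole reads within a tolerance of 0.01. The authors' deposited assembly gave exon positions, annotation identifiers and classes. Loci that match annotated transcripts count as coding if the assembly lists a protein identifier for them, and as noncoding if not.

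Testing required 10 or more normalized counts in 3 or more libraries and used a pseudocount of 1, with limma 3.58.1 in R 4.3.3 (trend and robust estimation, two-sided). All 50 members passed this filter. Changes on the log2(normalized count + 1) scale understate those of low loci. Summed shares were planned for an exact permutation test and are reported without a p, since the members were chosen by level. edgeR 4.0.16 and DESeq2 1.42.0 were run on the recovered reads as alternatives. The limma step was tested on simulated data. Python 3.11.15, pandas 2.3.3, numpy 2.4.6 and matplotlib 3.10.9 were also used.

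Loci given in every library were the 10 with the largest mean, the 6 largest gains and 4 largest losses of share, the 5 largest called rises and falls, the 3 largest and 3 smallest day 0 spreads, the noncoding members, those with over 50% shared exonic bases, the 5 highest and 3 lowest per kilobase and those at the threshold. XLOC_036600 and the neighbouring loci were added after their values were seen. The members and these lists were chosen with earlier results of these data known. Gene lists and cell type markers were not used, since no identifier matched a symbol, and no sequence was printed for the same reason.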

Additional observations from a re-analysis of the deposited data

How the results depend on the processing

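The count of 11 called members (6 higher, 5 lower) was also given by pseudocounts of 0.5 and 10, no filter, a minimum of 50, edgeR, DESeq2 and the fit with a replicate block, and the same 11 loci were called in each. Over their tested loci these settings called 42.8% (no filter) to 48.3% (DESeq2). The samples share only a replicate number: deviations of same-numbered libraries correlated at 0.176, 0.134 and 0.074, each best with its own number, and the replicate block called 7852 loci in all against 7543. Pairing by number leaves the top 10 and top 50 differences at 1.62 and 1.40 points by construction, so it checks nothing about them. Array weights per stage called 12, beside 42.1% of all tested loci. Own totals called 15 members, 9 lower, and quantile normalization 19, 12 lower, while plain eBayes called 3 lower. Over all tested loci these settings called 42.3, 44.2 and 41.0%. Under quantile normalization XLOC_015885 and XLOC_037721 turned to log2 changes of -0.47 and -0.38 (adjusted p 0.00254 and 0.00295, limma); the cause was not tested. Leaving out each library gave 9 to 18 called members, 6 to 13 higher and 3 to 12 lower. Over all tested loci these fits called 5143 to 8890. The same omissions gave top 10 differences of 1.53 to 1.81 points, top 50 differences of 0.663 to 1.88 and 46 to 48 members kept. Ranked per kilobase the top 50 difference was 0.688, and over loci with at most 10% shared bases 0.842. Of 850 refitted changes of single members, 57 had another sign with no call in either fit. The median count per exonic kilobase was 19894, 23309 with the longest transcript and 47860 with the median transcript, and ranking by it kept 20 members. XLOC_033696 and XLOC_029039 added 1.80 to 1.98 points with a library left out and 2.05 per kilobase, settings chosen after seeing the data.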
